A study of Rattus norvegicus with 8 samples.

Results

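The genes described here encode tropomyosins (Tpm1, Tpm2, Tpm3, Tpm4), transgelins (Tagln, Tagln2), myosin light chains (Myl6, Myl9) and the actin regulators Palldl1 and Daam1. They were picked by gene symbol from a list drawn up with earlier results of these data known, and make up 10 of the 30240 rows of the table. All 10 had a row, 8 were measured well enough to be tested (at least 1 CPM, reads scaled to the library's total, in at least 4 libraries, which 6849 rows reached), and the pair that was not, Tagln and Myl9, was described by its reads.

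The cells were SF2, a dental epithelial line of the rat, taken from the cervical loop of lower incisors, where ameloblast precursors arise. All groups shared this line. It was labelled as AmeloD-overexpressing or Control, and each genotype was combined with pCMV6 or pCMV6.ODAM and with N or TGF, labels that are not spelled out. Each of the 8 combinations had 1 library, so 4 libraries carried each genotype (AmeloD-overexpressing or Control), 4 each plasmid label and 4 each of N and TGF, and no combination was replicated. The promoter that drove AmeloD, whether the line was 1 clone, what the Control cells carried, and the dose and time of TGF are not stated in the sources consulted. Spread between libraries may therefore be technical.

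Libraries of the 3' ends of transcripts totalled 10568146 to 17775226 reads, of which 1662973 to 2854134 lay in the table, and the AmeloD libraries (10568146 to 13668736 reads) were all shallower than the Control libraries (14766931 to 17775226 reads). A count of 0 allowed up to 0.169 to 0.284 CPM per library (3 reads, counting error only). Ascl5, the gene of the transcription factor AmeloD, had 0 CPM in all 8 libraries, so it did not check the genotype label; the sources do not say which 3' end the construct carries. Odam stood at 0.0742 to 1.10 CPM in the pCMV6.ODAM libraries and at 0 to 0.0626 CPM in the pCMV6 libraries. The lowest pCMV6.ODAM value lay under 0.169 CPM, so Odam checked the plasmid label only weakly. The 4 epithelial markers analysed (Krt5, Krt17, Cdh1 and Epcam) summed to 731 to 840 CPM in the AmeloD libraries and 499 to 641 CPM in the Control libraries. The part of this difference and of depth in the genotype results was not tested. Of 6 fibroblast markers, 4 were at 0 reads, and the others, Col1a1 and Pdgfra, had 4 and 2 reads in all. Of 3 leukocyte markers, Lyz2 had 0 reads, Ptprc 1 and Fcer1g 11, with a sum of 0 to 0.146 CPM in the AmeloD and 0 to 0.271 CPM in the Control libraries. In bulk RNA, fewer cells of a type and less RNA per cell cannot be told apart.

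Tropomyosins are coiled-coil proteins that lie end to end along actin filaments and set which myosins and which severing or cross-linking proteins reach them. Rodent cells make many isoforms from 4 genes, and non-muscle cells use products of several of them at once. Transgelins bind and bundle actin, Tagln mostly in smooth muscle and Tagln2 more widely. Myosin light chains sit on the lever arm of myosin II, with Myl6 as an essential chain of non-muscle and smooth muscle myosin and Myl9 as a regulatory chain whose phosphorylation drives contraction. Palladins are scaffold proteins of stress fibres and focal adhesions. Daam1 is a formin that nucleates and elongates unbranched actin filaments in Wnt planar polarity signalling. Tropomyosin 1 and transgelin are widely used as genes induced by transforming growth factor beta in epithelial cells that build stress fibres.

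Tpm1, Palldl1 and Daam1 were each higher in AmeloD than in Control cells and higher with the TGF than with the N label. Tpm1 was 2.40-fold higher with AmeloD and 1.83-fold higher with TGF. Palldl1 was 2.05-fold and 2.64-fold higher, and Daam1 1.89-fold and 1.63-fold higher, all as fitted on log2(CPM + 1), where the added 1 shrinks the change of low genes. Myl6, the essential myosin light chain, stood at 0.842 times Control with AmeloD and was 1.29-fold higher with TGF, and Tpm3 stood at 0.744 times Control with AmeloD. Tpm2, Tpm4 and Tagln2 passed neither test.

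Across these genes, the genotype comparison called 3 of the 8 tested genes higher, 2 lower and left 3, against 13.8% of all tested genes called (9.07% higher, 4.75% lower). Their median difference was 0.24, beside 0.05 over all tested genes. The TGF comparison called 4 higher, 0 lower and left 4, against 1.81% of all tested genes called (1.53% higher, 0.277% lower). All 8 estimates were above 0 with TGF, and their median was 0.36, beside 0.04 over all tested genes. With TMM scaling the whole-table split moved from 621 higher and 325 lower to 532 and 481 for genotype, and from 105 and 19 to 86 and 30 for TGF. None of the 8 genes changed sign with TMM scaling or with equal medians in these comparisons.

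**Figure D1:**
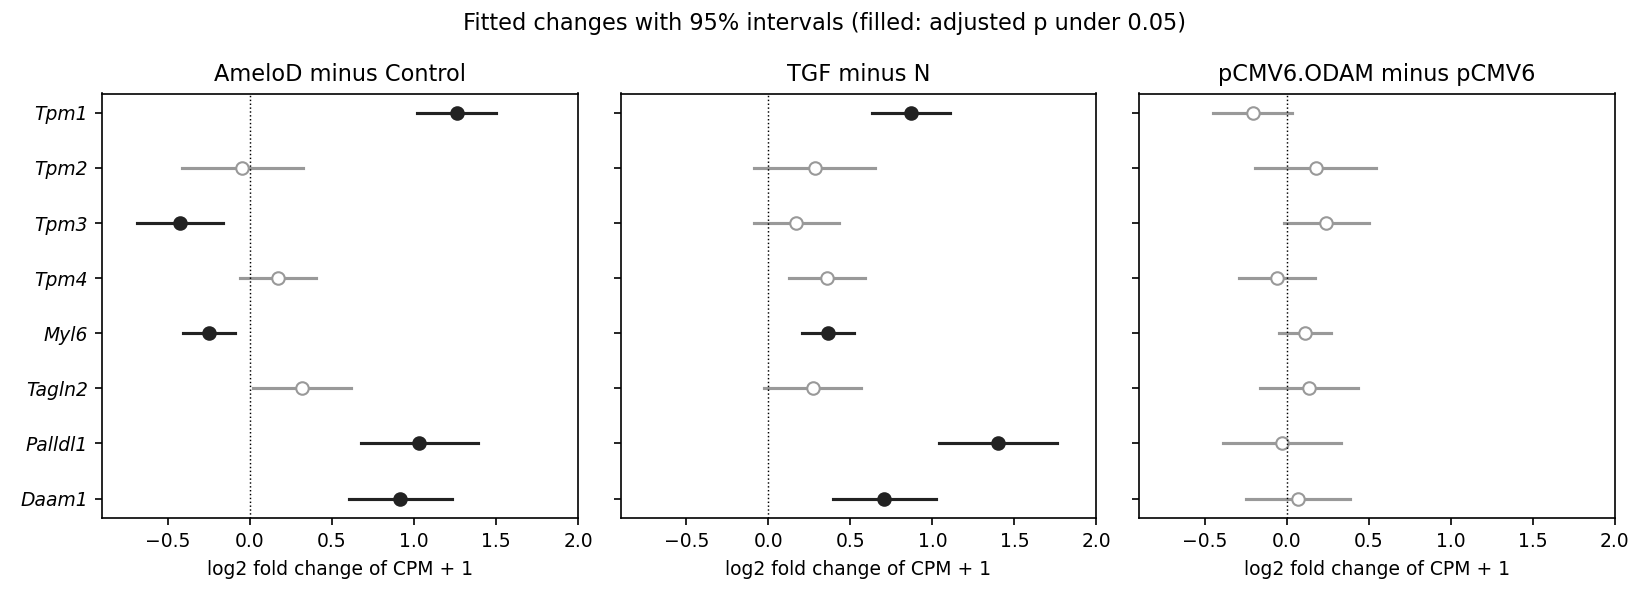
Estimated difference on the log2(CPM + 1) scale of each of the 8 tested genes for genotype, TGF and plasmid (1 panel each), with 95% limma intervals as bars and filled points for an adjusted p under 0.05. Palldl1 has the highest TGF estimate (1.40) and Tpm1 the highest genotype estimate (1.26), while the plasmid estimates lie between -0.21 and 0.24.

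RefSeq starts of the 3 genes that rose in both comparisons are shown because they moved together. In the Palldl1 row, reads of Palldl1 and Palld cannot be told apart. The Palldl1 window may therefore not be the start of the transcripts that rose. Tpm1 and Daam1 have 10 and 3 annotated transcripts, and reads of 3' ends do not show which start was used. Each sequence runs 5' to 3' on the gene's strand from 250 bases before to 50 bases after a RefSeq transcript start (build GRCr8). Capitals mark E-boxes (CANNTG on either strand), the motif class bound by basic helix-loop-helix factors such as AmeloD. The windows are chr8:76543366-76543665 on the minus strand for Tpm1, chr16:32985002-32985301 on the plus strand for Palldl1 and chr6:96182731-96183030 on the plus strand for Daam1.
Tpm1: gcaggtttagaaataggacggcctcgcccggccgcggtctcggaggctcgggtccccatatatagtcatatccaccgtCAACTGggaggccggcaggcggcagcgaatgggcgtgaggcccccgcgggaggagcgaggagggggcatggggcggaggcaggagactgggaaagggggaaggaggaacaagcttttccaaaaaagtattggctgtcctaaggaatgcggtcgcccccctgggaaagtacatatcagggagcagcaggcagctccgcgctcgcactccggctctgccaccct
Palldl1: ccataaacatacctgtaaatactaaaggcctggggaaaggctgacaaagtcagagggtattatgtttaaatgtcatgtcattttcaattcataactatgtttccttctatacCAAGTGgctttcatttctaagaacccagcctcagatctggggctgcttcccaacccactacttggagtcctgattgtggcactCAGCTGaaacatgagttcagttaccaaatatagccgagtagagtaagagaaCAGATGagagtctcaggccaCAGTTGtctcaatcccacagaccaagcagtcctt
Daam1: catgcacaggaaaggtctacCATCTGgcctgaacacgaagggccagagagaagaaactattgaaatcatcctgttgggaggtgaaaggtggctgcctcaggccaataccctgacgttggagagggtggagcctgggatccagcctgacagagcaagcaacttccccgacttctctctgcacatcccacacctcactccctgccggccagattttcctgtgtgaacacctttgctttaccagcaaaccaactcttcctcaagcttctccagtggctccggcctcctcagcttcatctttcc

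The Palldl1 window held 4 E-boxes, and those of Tpm1 and Daam1 held 1 each. RefSeq windows were found for 8 of the 10 genes, and 5 of the 8 had at least 1 E-box, a motif that 72.1% of all 33465 windows of this length held. The box CATTCC, which TEAD factors bind, stood in the windows of Tpm1 and Tagln2, 2 of 8, against 14.2% of all windows. The short SMAD box GTCT stood in 6 of 8, against 88.8% of all windows; 1 of those of Palldl1 shared a base with its last E-box. Neither the AP-1 site TGANTCA (7.33% of all windows) nor the CArG box bound by serum response factor (1.64%) was found in these 8 genes' windows. The CArG box was searched only as CC, then 6 bases of A or T, then GG. Forms that differ from it by 1 base were not searched. A gene was counted if any of its windows held the motif (11 windows for the 8 genes), while the percentages are shares of single windows. All motifs were searched on both strands, and a match is a description of letters, not a bound site.

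Tpm1 (ENSRNOG00000018184, chr8:67635479-67662802 in mRatBN7.2, minus strand) had 116.0 CPM in AmeloD pCMV6 N, 69.6 in AmeloD pCMV6.ODAM N, 160 in AmeloD pCMV6 TGF and 181 in AmeloD pCMV6.ODAM TGF. In the Control libraries, in the same order, it had 39.2, 36.8, 73.0 and 63.9 CPM. In all 4 matched pairs the AmeloD library was higher, although the lowest AmeloD value (69.6 CPM) lay below the highest Control value (73.0 CPM), so the genotypes overlapped. The genotype difference was 1.26 ± 0.12 on the log2(CPM + 1) scale (limma estimate ± SE, adjusted p = 2.12e-08), with pair ratios of 1.89 to 2.96 in CPM.

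The TGF difference of Tpm1 was 0.87 ± 0.12 (limma, log2(CPM + 1) scale, adjusted p = 3.43e-05), higher in 4 of 4 pairs, with ratios of 1.38 to 2.60. Tpm1 levels were lowest in Control N (mean 38.0 CPM of 2 libraries), then Control TGF (68.5), AmeloD N (92.8) and AmeloD TGF (170.1). Control TGF and AmeloD N are neighbours whose libraries overlapped in level. The AmeloD TGF mean was 4.47 times that of Control N, against 2.44 times for AmeloD N and 1.80 times for Control TGF. In the model with an interaction, Tpm1 was higher with TGF by 0.83 in Control cells (limma adjusted p = 0.00747) and by 0.91 in AmeloD cells (0.00157).

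**Figure D2:**
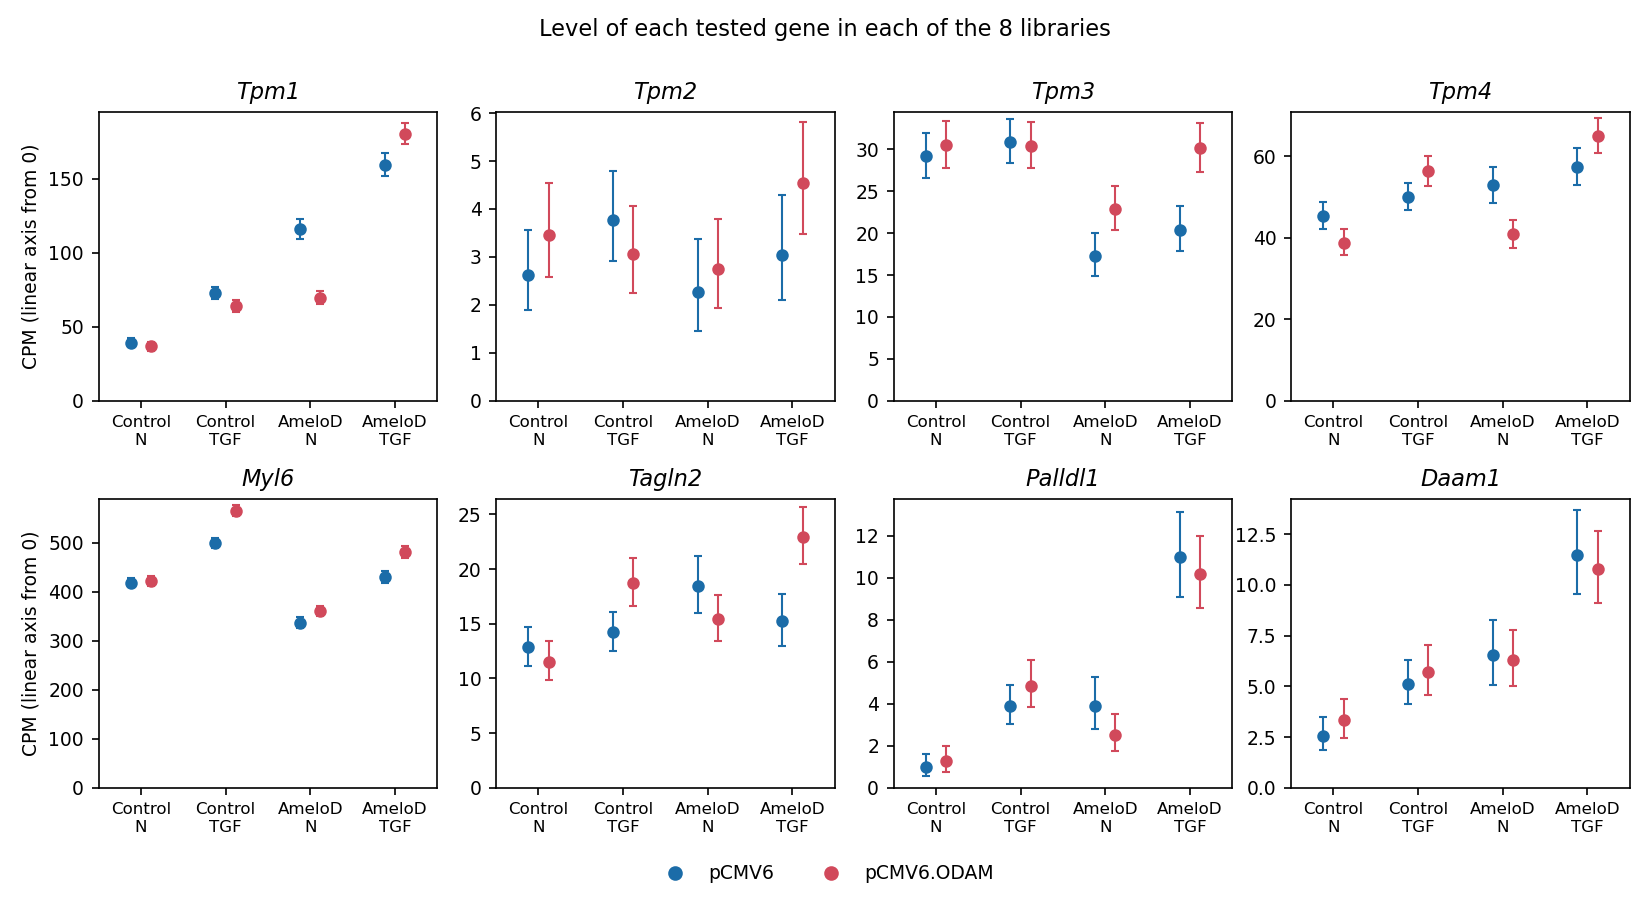
Level in CPM (linear axis from 0) of each of the 8 tested genes by genotype and N or TGF label, 1 point per library coloured by plasmid label, with 95% Poisson intervals of the reads as bars. Tpm1, Palldl1 and Daam1 lie highest in the AmeloD TGF libraries and lowest in the Control N libraries, from 36.8 to 181 CPM for Tpm1.

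Palldl1 (ENSRNOG00000010107, chr16:27981354-28621337 in mRatBN7.2, plus strand) is a palladin-type row with few reads. It had 3.88, 2.52, 10.99 and 10.2 CPM in AmeloD pCMV6 N, pCMV6.ODAM N, pCMV6 TGF and pCMV6.ODAM TGF. The Control values in that order were 1.001, 1.29, 3.88 and 4.87 CPM. The smallest of these rested on 16 reads (95% Poisson interval 0.572 to 1.63 CPM, counting error only) and the largest on 119 reads.

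With TGF Palldl1 rose by 1.40 ± 0.17 (limma, log2(CPM + 1) scale, adjusted p = 1.20e-05), and only 5 of the 6849 tested genes rose more. All 4 pairs were higher with TGF, by 2.83 to 4.03 times in CPM. The TGF and N libraries did not overlap, but only just, since Control pCMV6 TGF and AmeloD pCMV6 N both rounded to 3.88 CPM. The genotype difference was 1.03 ± 0.17 (limma adjusted p = 0.000164), with pair ratios of 1.96 to 3.87 and overlapping groups. Means over 2 libraries ran from 1.14 CPM in Control N through 3.20 in AmeloD N and 4.38 in Control TGF to 10.6 in AmeloD TGF, which was 9.25 times Control N. The row spans 640 kb that also holds reads of Cbr4 on the other strand (45 in all). RefSeq lists Palldl1 and Palld as separate genes, with 3 genes starting between them. The table has no row named Palld, so reads of these palladin genes cannot be told apart.

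Daam1 (ENSRNOG00000004345, chr6:90389688-90550114 in mRatBN7.2, plus strand), the formin, had 6.53, 6.30, 11.5 and 10.8 CPM in AmeloD pCMV6 N, pCMV6.ODAM N, pCMV6 TGF and pCMV6.ODAM TGF. It had 2.57, 3.32, 5.12 and 5.72 CPM in the matching Control libraries. Every AmeloD library was above every Control library. Daam1 was the only one of the 8 tested genes without overlap between genotypes, a state that 9.49% of all tested genes reached upward and 5.53% downward. The genotype difference was 0.92 ± 0.15 (limma, log2(CPM + 1) scale, adjusted p = 0.000150) and the TGF difference 0.71 ± 0.15 (limma adjusted p = 0.0112), each in 4 of 4 pairs. The TGF call was lost without AmeloD pCMV6.ODAM N (adjusted p = 0.0703), AmeloD pCMV6 TGF (0.0581) or Control pCMV6 N (0.0562). In the model with an interaction, the TGF difference was 0.71 in both Control and AmeloD cells. It passed the test in neither (limma adjusted p = 0.337 and 0.164). The AmeloD TGF mean of 11.1 CPM was 3.77 times the 2.94 CPM of Control N.

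**Figure D3:**
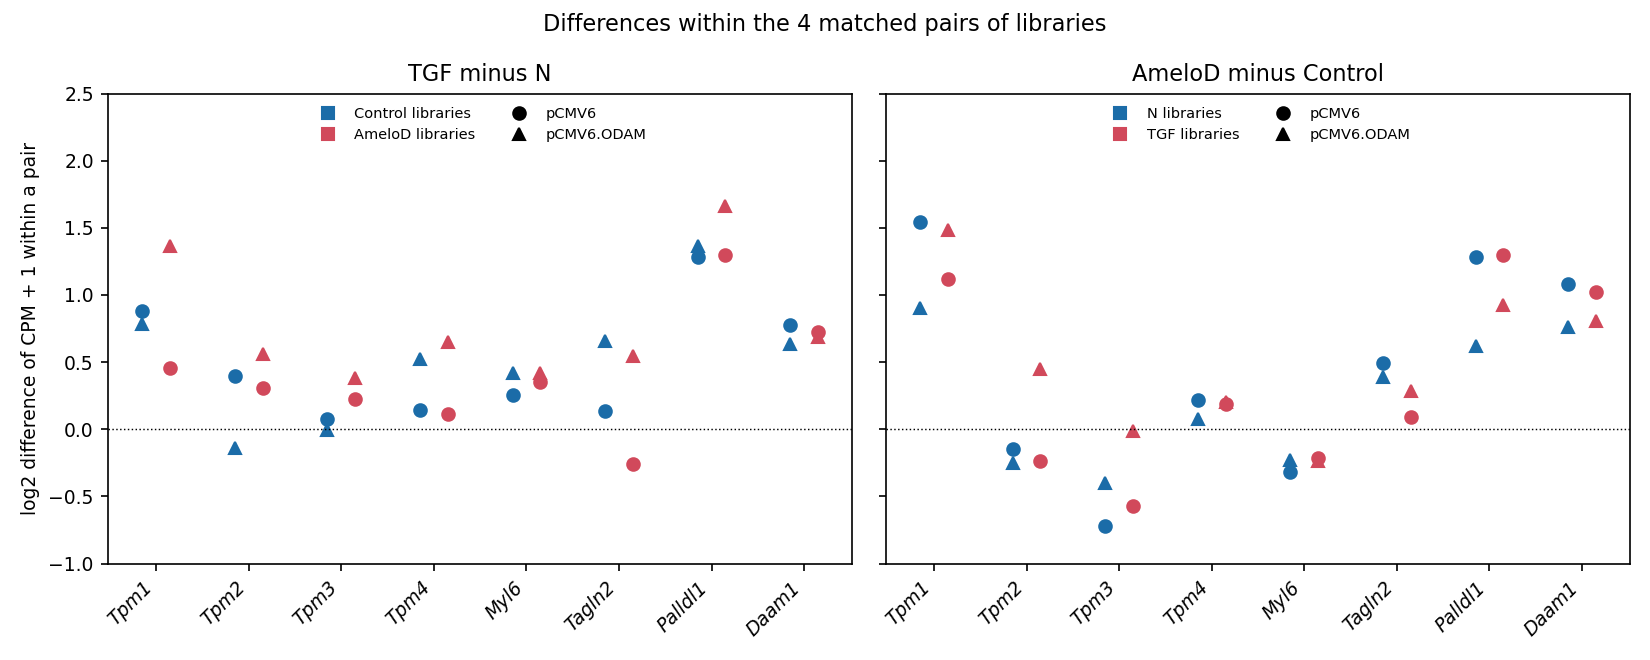
Difference of log2(CPM + 1) within each of the 4 matched pairs of libraries that differ in the TGF label alone (left) or in the genotype label alone (right), with colour for the shared genotype or TGF label and shape for the plasmid label. All 4 pairs lie above 0 on both sides for Tpm1, Palldl1, Daam1 and Tpm4, and those of Myl6 lie above 0 for TGF (0.25 to 0.42) and below 0 for genotype (-0.32 to -0.21).

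Rising in both comparisons was shared by 3 of the 8 tested genes and by 19 of all 6849 tested genes (0.277%). It was seen in 0 of the 81 other tested actin genes. The 8 genes and the actin list were chosen with earlier results of these data known, and the list left the 8 genes out. These counts are therefore a description and carry no test. Both comparisons use the same 8 libraries. Over these 8 libraries the log2 levels of Tpm1 and Daam1 correlated at r = 0.95, those of Palldl1 and Daam1 at 0.95 and those of Tpm1 and Palldl1 at 0.93, values that share the library and its depth and carry no test. Among all tested genes, those whose levels followed Tpm1 most closely were Dgcr6 (r = 0.99), S100a10 (r = 0.99) and the formin gene Diaph2 (r = 0.98).

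Over the 8 libraries the log2 level of Tpm1 correlated with that of Tpm4 at r = 0.81, with that of Tpm2 at 0.26 and with that of Tpm3 at -0.47, as a description. Tpm3 (ENSRNOG00000017441, chr2:175517226-175545013, plus strand), which encodes cytoskeletal and slow muscle isoforms, had 17.3, 22.9, 20.4 and 30.1 CPM in AmeloD pCMV6 N, pCMV6.ODAM N, pCMV6 TGF and pCMV6.ODAM TGF. In the Control libraries it stayed at 29.2, 30.5, 30.9 and 30.4 CPM. Thus 3 of the 4 AmeloD libraries were below all Control libraries, and AmeloD pCMV6.ODAM TGF reached the Control level. Tpm3 fell by 0.43 with AmeloD (SE 0.13, limma, log2(CPM + 1) scale, adjusted p = 0.0234). That call was lost when any 1 of 6 libraries was left out (all but the pCMV6.ODAM TGF pair), with adjusted p up to 0.124.

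Tpm4 (ENSRNOG00000015496), a cytoskeletal tropomyosin, ranged from 38.7 to 64.8 CPM. Its AmeloD libraries were higher in 4 of 4 pairs, by 1.05 to 1.17 times, and its TGF libraries in 4 of 4 pairs, by 1.08 to 1.59 times. Neither the genotype difference of 0.17 ± 0.11 (limma adjusted p = 0.356) nor the TGF difference of 0.36 ± 0.11 (limma adjusted p = 0.125) passed the test. Tpm2 (ENSRNOG00000016731), known mostly from striated and smooth muscle, had 2.27 to 4.54 CPM. Its genotype difference was -0.05 ± 0.18 (limma 95% interval -0.42 to 0.32).

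The balance among the 4 tropomyosin genes is given as shares of their summed reads, not of molecules. These shares did not overlap between the genotypes for Tpm1, Tpm3 and Tpm4, separations that depend on each other. In CPM the genotypes overlapped for each of these genes. Of all tested genes, 9.49% separated upward and 5.53% downward by genotype in CPM, and no such count was made for shares. Tpm1 held 61.6%, 51.1%, 66.4% and 64.5% of tropomyosin reads in AmeloD pCMV6 N, pCMV6.ODAM N, pCMV6 TGF and pCMV6.ODAM TGF. In the Control libraries it held 33.7%, 33.6%, 46.3% and 41.6%. The lowest AmeloD share (51.1%, Wilson 95% interval 48.8% to 53.4%) lay above the highest Control share (46.3%, 44.4% to 48.1%). These intervals cover counting error only and not the spread between libraries. The AmeloD and Control library of a pair differed by 17.5 to 27.8 percentage points. The mean share was 60.9% ± 6.82 with AmeloD and 38.8% ± 6.24 in Control (SD, n = 4 libraries each). With TGF the Tpm1 share was higher by 4.85 to 13.4 points in all 4 pairs.

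Tpm3 held 8.50% to 16.8% of tropomyosin reads with AmeloD and 19.6% to 27.8% in Control. Tpm4 held 23.1% to 30.03% and 31.7% to 38.9%. Tpm2 held 1.21% to 2.02% with AmeloD and 1.99% to 3.16% in Control, the only one of the 4 whose shares overlapped. The summed tropomyosin level was 136 to 280.1 CPM with AmeloD and 109 to 158 CPM in Control. Shares of a total are bound to each other, so a larger share of Tpm1 lowers the others. How reads that match several tropomyosin genes were treated is not stated in the sources.

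**Figure D4:**
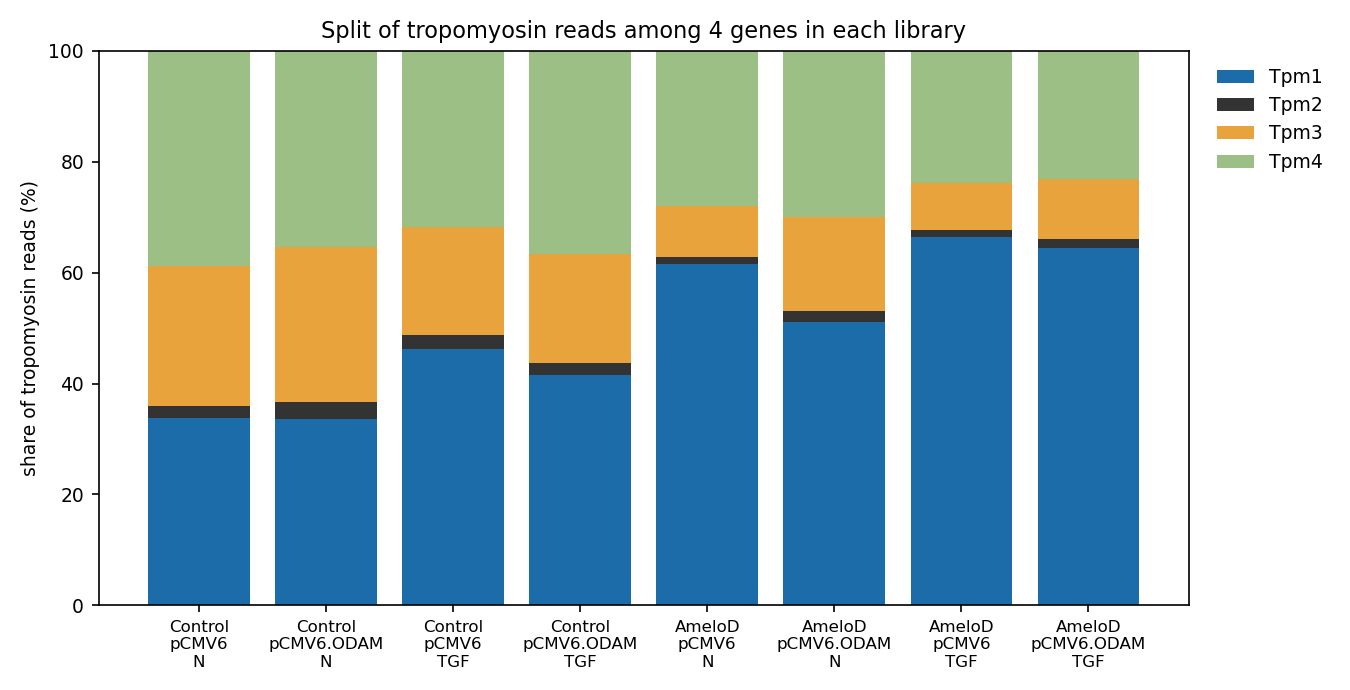
Share in percent of the summed reads of Tpm1, Tpm2, Tpm3 and Tpm4 held by each gene in each of the 8 libraries, as stacked bars. Tpm1 takes 51.1% to 66.4% in the 4 AmeloD libraries and 33.6% to 46.3% in the 4 Control libraries.

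Of the myosin light chains, Myl6 (ENSRNOG00000054140, chr7:910774-933791, minus strand) had 336, 360.3, 431 and 481 CPM in AmeloD pCMV6 N, pCMV6.ODAM N, pCMV6 TGF and pCMV6.ODAM TGF. The Control libraries had 419, 422, 499.9 and 566 CPM. Every AmeloD library was below its matched Control library, and every TGF library was above every N library. Myl6 and Palldl1 were the 2 of 8 genes whose TGF libraries all lay above the N libraries, against 3.11% of all tested genes upward (1.15% downward). Myl6 fell by 0.25 with AmeloD (SE 0.08, limma adjusted p = 0.0313) and rose by 0.36 ± 0.08 with TGF (limma adjusted p = 0.00966), on the log2(CPM + 1) scale. The genotype call held without AmeloD pCMV6.ODAM TGF and was lost without any 1 of the other 7 libraries (adjusted p up to 0.128). The TGF call was lost without Control pCMV6.ODAM N (0.0628) and with TMM scaling (0.0940).

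Myl9, the regulatory light chain of smooth muscle, had 1 read in the 8 libraries together, in Control pCMV6 N. Tagln had 3 reads, 1 each in Control pCMV6.ODAM N, Control pCMV6 TGF and Control pCMV6.ODAM TGF, and 0 in all AmeloD libraries. Neither could be compared, and no rise with TGF was detectable at this depth. Smooth muscle markers were near the floor as well, with Cnn1 and Lmod1 at 0 reads, Des at 7, Myh11 at 9 and Acta2 at 55 reads over 8 libraries, and their sum was 1.91 to 3.90 CPM, mostly from Smtn. Of 6 striated muscle markers, Tnnt1 and Actc1 had 0 reads, Ttn and Myh7 2 each, Tnnt2 8 and Acta1 22, and their sum was 0.0732 to 1.48 CPM in the AmeloD and 0.0626 to 0.225 CPM in the Control libraries.

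Tagln2 (ENSRNOG00000008301), the widely expressed transgelin, was measured well, at 18.5, 15.4, 15.2 and 23.0 CPM in AmeloD pCMV6 N, pCMV6.ODAM N, pCMV6 TGF and pCMV6.ODAM TGF. The Control values were 12.8, 11.5, 14.2 and 18.7 CPM. In each genotype the highest library was pCMV6.ODAM TGF. Its genotype difference was 0.31 ± 0.14 (limma adjusted p = 0.157), with 4 of 4 pairs higher. The TGF difference was 0.27 ± 0.14 (limma adjusted p = 0.475), with 3 of 4 pairs higher.

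Neither the pCMV6.ODAM label nor any interaction of labels passed the test for these genes. Odam reached at most 1.10 CPM in the pCMV6.ODAM libraries, so its reads do not show how strongly ODAM was expressed. The plasmid comparison called 0 of 8 and 0% of all 6849 tested genes with limma (454 at an unadjusted p under 0.05), while edgeR called 0 and DESeq2 called 1 gene of the table. In none of the 8 genes did the libraries of the plasmid labels separate without overlap, as 1.43% of all tested genes did upward and 0.628% downward. Tpm1 differed by -0.21 between the plasmid labels (limma 95% interval -0.45 to 0.03), and Tpm3 by 0.24 (-0.02 to 0.50). The genotype by TGF interaction called 0 of 8, against 0.0146% of all tested genes (282 at an unadjusted p under 0.05; 0 genes with edgeR and with DESeq2). It was 0.08 for Tpm1 (95% interval -0.41 to 0.57), 0.16 for Palldl1 (-0.58 to 0.90) and -0.00 for Daam1 (-0.67 to 0.66), intervals wide enough to hold sizeable differences. For genotype by plasmid limma called 0 of 8 and 0% of the table (308 at an unadjusted p under 0.05; 0 genes with edgeR), with the estimate farthest from 0 at -0.52 for Palldl1 (95% interval -1.22 to 0.19). For TGF by plasmid limma called 0 of 8 and 0% of the table (504 at an unadjusted p under 0.05; 0 genes with edgeR). Its largest estimate was that of Tagln2, 0.66 ± 0.24 (adjusted p = 0.581), with TGF differences of -0.06 under pCMV6 and 0.60 under pCMV6.ODAM. Tpm4 was higher with TGF by 0.59 under pCMV6.ODAM (limma adjusted p = 0.0308) and by 0.13 under pCMV6. The difference between these did not pass (0.46 ± 0.19, limma adjusted p = 0.653). The median TGF by plasmid estimate of the 8 genes was 0.17, beside 0.16 over all tested genes. With edgeR or TMM scaling, alternatives added after seeing the data, the estimates were 0.47 to 0.48 for Tagln2 and 0.26 for Tpm4.

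Other genes of the actin cytoskeleton formed a list of 103, of which 99 were in the table and 81 were tested. With TGF 7 of the 81 rose and 0 fell (8.64%, against 1.81% of all tested genes), 72 estimates were above 0, and the median was 0.21 beside 0.04 over all tested genes. Tmsb10, encoding a small peptide that binds actin monomers, rose most firmly, from 5047 ± 545 to 9040 ± 1552 CPM (mean ± SD, n = 4 libraries; limma 0.83 ± 0.07, adjusted p = 3.05e-08). Cald1, encoding caldesmon, which binds actin beside tropomyosin, rose from 11.03 ± 2.18 to 23.4 ± 2.79 CPM (limma 1.03 ± 0.14, adjusted p = 2.97e-05). The LIM domain genes Pdlim7 (0.97 ± 0.19, limma adjusted p = 0.00360) and Fhl2 (0.81 ± 0.16, 0.00492) rose too, and the other calls were Actb, Arpc1b and Arhgdia. Of the serum response factor group, Mrtfa and Mrtfb were tested, and neither passed (limma adjusted p = 0.0857 and 0.636). The TGF count of 7 was 4 with TMM scaling and 4 without any 1 of 4 libraries (AmeloD pCMV6 N, AmeloD pCMV6.ODAM N, AmeloD pCMV6.ODAM TGF or Control pCMV6.ODAM N).

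With AmeloD, 11 of the 81 actin genes rose and 5 fell (19.8%, against 13.8% of all tested genes), and the median of 0.05 equalled that of all tested genes to 2 decimals. Fhl1, a LIM domain gene of muscle and other cells, rose from 0.910 ± 0.447 CPM in Control to 15.3 ± 1.70 CPM with AmeloD (mean ± SD, n = 4; limma 3.11 ± 0.17, adjusted p = 1.15e-12). Myh14, a heavy chain of non-muscle myosin II, rose from 1.83 to 4.69 CPM, Ppp1cb, the catalytic subunit of myosin phosphatase, from 8.50 to 15.9 CPM, and Dstn, the actin severing protein destrin, from 69.4 to 110.5 CPM. In the other direction Pfn1, encoding profilin, fell from 12.8 to 6.80 CPM (limma adjusted p = 0.000766) and Cfl2, encoding a cofilin, from 3.23 to 1.53 CPM. Cdc42ep3 and the regulatory light chain gene Myl12b fell by 0.45 and 0.37 (limma adjusted p = 0.0209 and 0.0253), and each call was lost in 5 of the 8 fits that left out 1 library. Of the regulatory light chain genes Myl12a and Myl12b on the list, Myl12b alone was tested. Myl12b had 40.2 ± 7.91 CPM with AmeloD and 51.8 ± 4.54 CPM in Control, beside 1 read of Myl9. The level of Myl12a is not given here. The count of 16 was 8 without AmeloD pCMV6 N, 8 without Control pCMV6 TGF and 9 without Control pCMV6.ODAM N.

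**Figure D5:**
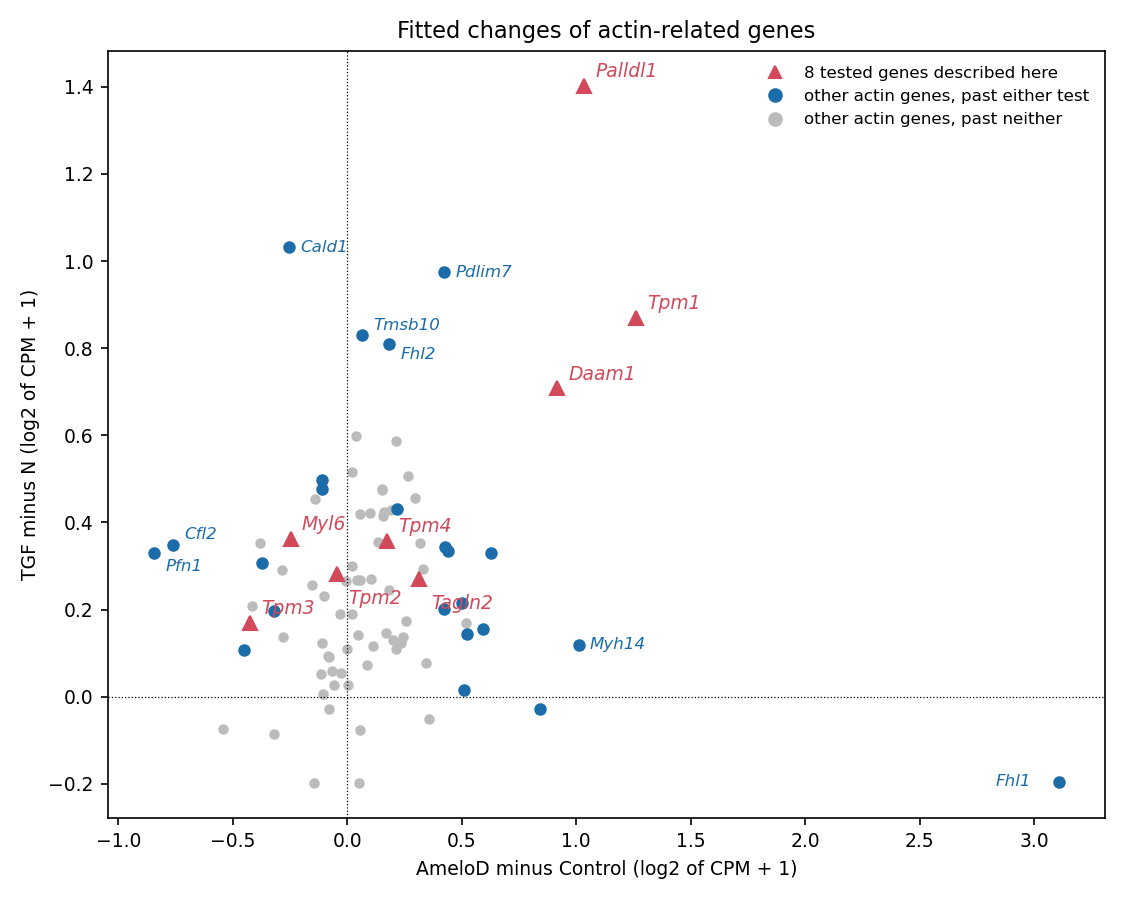
Estimated genotype difference (horizontal) against TGF difference (vertical), both on the log2(CPM + 1) scale, for the 8 tested genes (triangles) and the 81 other actin genes (circles, blue where either test was passed). Tpm1, Palldl1 and Daam1 lie high in both directions, while Fhl1 (3.11 for genotype) and Cald1 (1.03 for TGF) lie out along 1 axis each.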

How the data were processed

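The authors deposited 1 table of CPM per gene and library (rat build mRatBN7.2). Per the labels' protocols, total RNA was made into 3' end libraries (QIAseq UPX 3' Transcriptome), and trimmed reads were aligned with STAR and counted with featureCounts (2.7.10a and 2.0.1, per the submitters' processing notes). Molecular identifiers, strand setting and shared reads are not described in the sources. CPM is scaled to the library total, of which the table holds 15.6% to 17.5%. Divided by the CPM of 1 read, 100% of values were whole numbers (tolerance 0.01).

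The members and gene lists were chosen with earlier results of these data known, and the motifs other than the CArG box were chosen after the data were seen. limma 3.58.1 (R 4.3.3, eBayes with trend, two-sided) was run on log2(CPM + 1), pseudocount 1, with genotype, TGF and plasmid as additive terms over 8 libraries, and with each interaction added in turn. Benjamini-Hochberg adjustment covered the 6849 genes with at least 1 CPM in at least 4 libraries, threshold 0.05. No combination was replicated, so the residual spread also holds the interactions. Alternatives were other pseudocounts, no filter, TMM scaling, equal medians, edgeR 4.0.16 and DESeq2 1.42.0 on recovered reads, and leaving out each library. On simulated data with 2-fold changes, 72% were recovered for genotype, 52% for TGF and 4% for their interaction. False calls made up 4.83%, 0.794% and 9.09% of the calls. The simulation used the same dispersion for every gene, not estimated from these data, so these shares are not the power of this experiment. Named actin genes were up to 4 rises and 4 falls of largest size past the test per comparison; no likeness is given for Tagln, which was not tested.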

Additional observations from a re-analysis of the deposited data

How the results depend on the processing

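Across 18 alternatives each, the genotype differences of Tpm1 (1.14 to 1.40), Palldl1 (0.94 to 1.34) and Daam1 (0.84 to 1.08) kept their call. So did the TGF difference of Palldl1 (1.27 to 1.82). The TGF difference of Tpm1 (0.73 to 0.99) lost its call in the AmeloD libraries alone (limma adjusted p = 0.169). That of Daam1 (0.66 to 0.83) kept its call in 13 of 18. It was lost in Control alone (limma adjusted p = 0.460), in AmeloD alone (0.329) and in 3 of the fits that left out 1 library. The 5 genotype calls among the 8 genes were 3 with no filter, 3 in the TGF libraries alone and 3 to 5 with 1 library left out. The 4 TGF calls were 2 in Control alone, 1 in AmeloD alone and 3 to 4 with 1 library left out. The genotype calls lost were those of Tpm3 (no filter, adjusted p = 0.0561; TGF libraries alone, 0.452) and Myl6 (0.0977 and 0.384; N libraries alone, 0.168). The TGF call of Myl6 was also lost with no filter (0.0685), equal medians (0.0626) and edgeR (0.101). Over all tested genes, 946 genotype calls were 437 in the TGF libraries alone and 642 to 924 with 1 library left out. The 124 TGF calls were 67 with no filter, 54 in Control alone, 11 in AmeloD alone and 71 to 104 with 1 library left out. The plasmid count of 0 was 1 with DESeq2 and 0 to 2 with 1 library left out. The single genotype by TGF call was 0 with pseudocounts 0.5 and 0.1, with no filter, with edgeR and with DESeq2, and 0 to 7 with 1 library left out. Of the actin list, 16 genotype calls were 8 with no filter, 6 in the TGF libraries alone and 8 to 14 with 1 library left out. Its 7 TGF calls were 4 with no filter, TMM scaling, equal medians or edgeR, 2 in Control alone, 0 in AmeloD alone and 4 to 7 with 1 library left out. Some of these fits used fewer libraries or more genes, while those with TMM scaling, equal medians or edgeR used the same libraries and genes. The causes of the lost calls were not tested.

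Signs turned only for estimates that passed no test. With 1 library left out, the genotype estimate of Tpm2 was -0.19 to 0.021, and it was 0.11 in the TGF libraries alone. The plasmid estimates were -0.12 to 0.022 for Tpm4, -0.12 to 0.10 for Palldl1 and -0.0019 to 0.26 for Tagln2. The genotype by TGF estimates were -0.27 to 0.43 for Tpm1, -0.15 to 0.25 for Tpm4, -0.14 to 0.45 for Palldl1, -0.14 to 0.13 for Daam1, -0.54 to 0.029 for Tagln2 and -0.018 to 0.12 for Myl6. That of Palldl1 was also -0.12 with a pseudocount of 0.1, -0.18 with edgeR and -0.19 with DESeq2, and that of Daam1 was 0.017 with equal medians. The TGF by plasmid estimates, in alternatives added after seeing the data, were -0.15 with edgeR and -0.16 with TMM scaling for Tpm3, and -0.094 and -0.089 for Myl6. With equal medians the genotype split over all tested genes was 490 higher and 510 lower, and the TGF split 83 and 28. No fit with a replicate block was made, since the labels carry no replicate numbers; the matched pairs are libraries that differ in 1 label, and the additive fit takes the other labels into account. Tagln and Myl9, with 3 and 1 reads over the 8 libraries, were too low to be tested. The cause of their low counts was not tested.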

Other observations

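Acta2, the smooth muscle actin gene, was not tested because of its low level, but its reads were unevenly spread. It had 23 reads (1.68 CPM) in AmeloD pCMV6.ODAM TGF and 11 reads (0.715 CPM) in Control pCMV6.ODAM TGF, against 1 to 7 reads in each of the other 6 libraries. Acta1, the skeletal muscle actin gene, had 14 reads in AmeloD pCMV6 TGF and 0 to 3 reads in each of the other 7 libraries. Both genes were singled out after their values were seen, and neither pattern was tested.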
